A study of Arabidopsis thaliana with 12 samples.

Results

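The genes described here are PRK (AT1G32060), SBPASE (AT3G55800) and AT5G17630, the locus of the pentose phosphate translocator XPT. They were chosen by locus and by having a probe that the platform annotation assigns to exactly 1 gene. Each of the 3 genes has 1 such probe, and they are 3 of 692 probes with exactly 1 gene and of 3439 probes in all. Signals were measured in total RNA of wild-type Arabidopsis thaliana, ecotype Columbia 0, on 12 arrays. The recovery group (6 arrays) spent 24 h at 4 °C in medium light, conditions that the labels call photoinhibitory, and was then returned to 20 °C in medium light for a further 24 h. The cold group (6 arrays) was sampled after the same cold exposure without the return to 20 °C. All plants of the series thus went through the cold treatment, and plants that were never chilled were not analysed here. The labels name neither the tissue, the age, nor whether arrays of a group came from separate plants.

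PRK encodes phosphoribulokinase, the plastid enzyme that uses ATP to turn ribulose 5-phosphate into ribulose 1,5-bisphosphate, the acceptor of CO2 in the Calvin cycle. SBPASE encodes sedoheptulose-1,7-bisphosphatase, which removes a phosphate from sedoheptulose bisphosphate in the branch of the cycle that regenerates that acceptor. Both enzymes are switched on in the light through thioredoxin. XPT belongs to the phosphate translocators of the inner plastid envelope and exchanges xylulose 5-phosphate and triose phosphates for inorganic phosphate, which links the pentose phosphates of the cytosol and the plastid. In light at low temperature the Calvin cycle slows while light absorption does not, and the unbalanced excitation damages photosystem II.

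After the return to 20 °C the Calvin cycle transcripts PRK and SBPASE stood higher relative to the other probes of the array, and XPT stood lower. After quantile normalization PRK was 2.71-fold higher in recovery than in cold, SBPASE was 1.66-fold higher and XPT was 3.56-fold lower. All 3 passed the test across the whole array, limma with Benjamini-Hochberg adjustment over all probes at 0.05. That test was passed by 40.7% of all probes, 21.4% as higher and 19.3% as lower, so a call by itself does not set the 3 genes apart. Arrays 1 and 2, 3 and 4, and 5 and 6 of a group resembled each other most and were averaged, which leaves n = 3 pair means per group. The p-values therefore cover only the variation among these arrays, part or all of which may be technical.

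The median deposited signal of an array lay between 0.0971 and 0.128 in recovery and between 0.276 and 0.315 in cold, on a linear scale that reaches 100. Between 11.3% and 16.4% of the probes of a recovery array were listed at 0, against 5.26% to 6.57% on a cold array. Whether a gene counts as higher or lower in recovery can thus depend on how arrays are made comparable. Of 5 markers of green tissue, 2 had a probe with exactly 1 gene. LHB1B2 (also called LHCB1.5), an antenna protein of photosystem II, had a signal of 26.5 ± 3.03 in recovery and 7.63 ± 0.392 in cold (SD, n = 3). PSAN, a photosystem I subunit, had 6.14 ± 1.15 in recovery and 1.27 ± 0.0381 in cold. For both, the deposited pair means were higher in recovery without overlap, as for 6.37% of all probes. None of 8 root and 4 epidermis markers had a probe with exactly 1 gene, and the part of tissue composition in the results was not tested. Where RNA comes from many cells at once, fewer cells of a type and less RNA per cell cannot be told apart. The labels name no batch, and an unnamed batch that follows the groups cannot be told apart from the treatment.

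PRK had deposited signals of 0.820, 0.773 and 0.703 in the 3 recovery pairs, against 0.637, 0.430 and 0.505 in the 3 cold pairs. Over single arrays the recovery signals ran from 0.668 to 0.854 with a median of 0.762, and the cold signals ran from 0.401 to 0.686 with a median of 0.505. The pair means of the groups did not overlap, as for 6.37% of all probes that were higher in this way, while over single arrays the dimmest recovery array (array 5) lay below the brightest cold array (array 2). PRK was brighter in recovery even before any scaling, at 0.766 ± 0.0586 in recovery and 0.524 ± 0.105 in cold (SD, n = 3), although the median array signal was lower in recovery. The exact two-sided permutation p over pair means was 0.1, the smallest that 3 against 3 can give. After quantile normalization the log2 change of PRK was 1.44 ± 0.17 (SE, n = 3 per group), with a 95% interval of 1.06 to 1.82 and an adjusted p of 1.00e-04 (limma). On that scale all 6 recovery arrays lay above all 6 cold arrays, as they did for 19.0% of all probes.

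SBPASE had deposited signals of 0.378, 0.470 and 0.408 in the 3 recovery pairs, against 0.651, 0.455 and 0.470 in the 3 cold pairs. Over single arrays the recovery signals ran from 0.360 to 0.477 with a median of 0.418, and the cold signals ran from 0.448 to 0.691 with a median of 0.475. The groups overlapped: recovery arrays 3 and 4 lay above cold arrays 3, 4 and 6, and cold arrays 1 and 2 were the brightest. The mean raw signal was 0.419 ± 0.0472 in recovery and 0.525 ± 0.109 in cold (SD, n = 3; exact two-sided permutation p = 0.3). The rise of SBPASE is therefore a rise relative to the other probes: its log2 change was 0.73 ± 0.18 after quantile normalization (SE, n = 3 per group), with a 95% interval of 0.32 to 1.14 and an adjusted p of 0.0102 (limma). On the normalized scale all 6 recovery arrays lay above all 6 cold arrays, which 19.0% of all probes also showed. On the deposited scale, where the median probe changed by -0.86, the change of SBPASE was -0.29 ± 0.17 with an adjusted p of 0.185 (limma).

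XPT had deposited signals of 0.113, 0.186 and 0.179 in the 3 recovery pairs, against 1.30, 1.42 and 1.12 in the 3 cold pairs. Over single arrays the recovery signals ran from 0.0923 to 0.208 with a median of 0.162, and the cold signals ran from 1.09 to 1.45 with a median of 1.30. The groups lay far apart, with every recovery array below every cold array. Its mean raw signal was 0.159 ± 0.0404 in recovery and 1.28 ± 0.151 in cold (SD, n = 3), an 8.03-fold lower signal in recovery, while 49.2% of all probes had 6 recovery arrays below 6 cold arrays on this scale. After quantile normalization the log2 change of XPT was -1.83 ± 0.23 (SE, 3 pair means a group), with a 95% interval of -2.34 to -1.32 and an adjusted p of 1.36e-04 (limma). On that scale too every recovery array lay below every cold array, as in 15.9% of all probes.

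**Figure D1:**
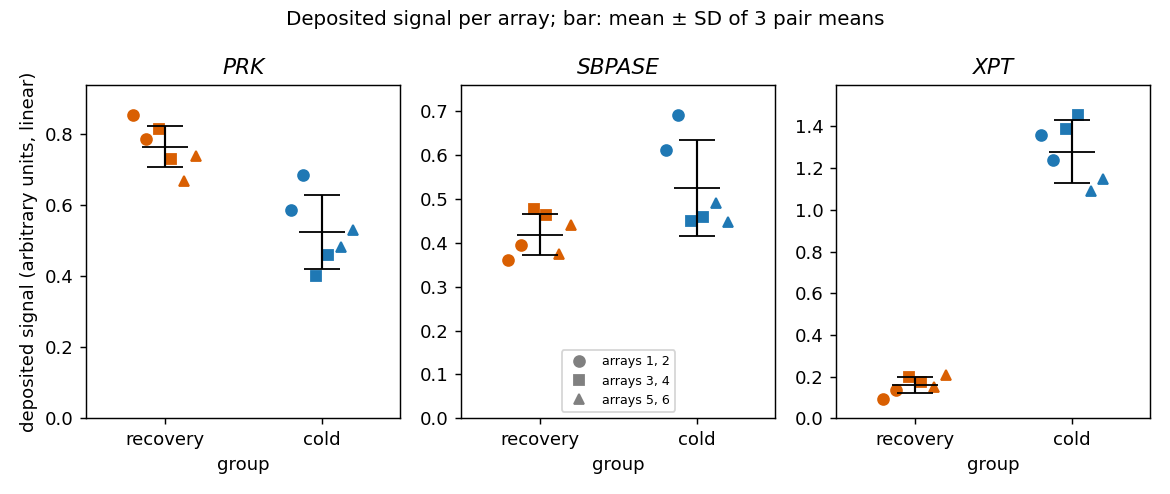
Deposited signal (linear, arbitrary units) of PRK, SBPASE and XPT on each array, recovery left of cold, with the symbol giving the pair of arrays and the bar the mean ± SD of 3 pair means. PRK lies mostly higher in recovery, SBPASE overlaps between the groups, and XPT lies between 0.0923 and 0.208 in recovery and between 1.09 and 1.45 in cold.

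The error of these values differed between genes and groups. On the normalized log2 scale, arrays of 1 pair differed on average by 0.12 in recovery and 0.19 in cold for PRK, and by 0.11 in recovery and 0.12 in cold for SBPASE. For XPT the gap was 0.28 in recovery and 0.097 in cold. The pair means of PRK had an SD of 0.061 in recovery and 0.24 in cold, and those of SBPASE an SD of 0.17 in recovery and 0.21 in cold. XPT was least even in recovery, where its pair means had an SD of 0.44 against 0.18 in cold, with the pair of arrays 1 and 2 lowest. In the cold group arrays 1 and 2 gave the brightest signals of PRK and of SBPASE, but not of XPT, whose brightest cold arrays were 3 and 4.

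The place of a gene within its own array needs neither scaling nor pseudocount. PRK had a higher signal than 86.7%, 87.1% and 86.2% of the probes in the 3 recovery pairs, against 71.8%, 62.5% and 69.0% in the 3 cold pairs. It thus stood 18.9 percentage points higher in recovery, at 86.7% ± 0.473 in recovery and 67.8% ± 4.76 in cold (SD, n = 3). SBPASE outshone 77.1%, 81.3% and 79.5% of the probes in recovery, against 72.4%, 64.7% and 66.6% in cold. Its place was 11.4 points higher in recovery, while its raw signal was not higher.

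XPT outshone 46.2%, 66.8% and 64.2% of the probes in the 3 recovery pairs, against 86.4%, 88.3% and 85.6% in the 3 cold pairs. The difference in its place was -27.7 points, at 59.1% ± 11.2 in recovery and 86.8% ± 1.38 in cold (SD, n = 3). For each of the 3 genes the recovery arrays and the cold arrays did not overlap in this place, as for 16.6% of all probes in the higher and 16.0% in the lower direction. The exact two-sided permutation p over pair means was 0.1 for each, also after Benjamini-Hochberg adjustment over the 3 genes, which is the smallest that 3 against 3 can give. With the 12 arrays taken as independent samples, although neighbouring arrays resembled each other, it was 0.00216 for each. That is the smallest that 6 against 6 can give. Counted without the dimmer 50% of probes, the differences in place were 37.6 points for PRK, 22.7 for SBPASE and -46.4 for XPT.

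**Figure D2:**
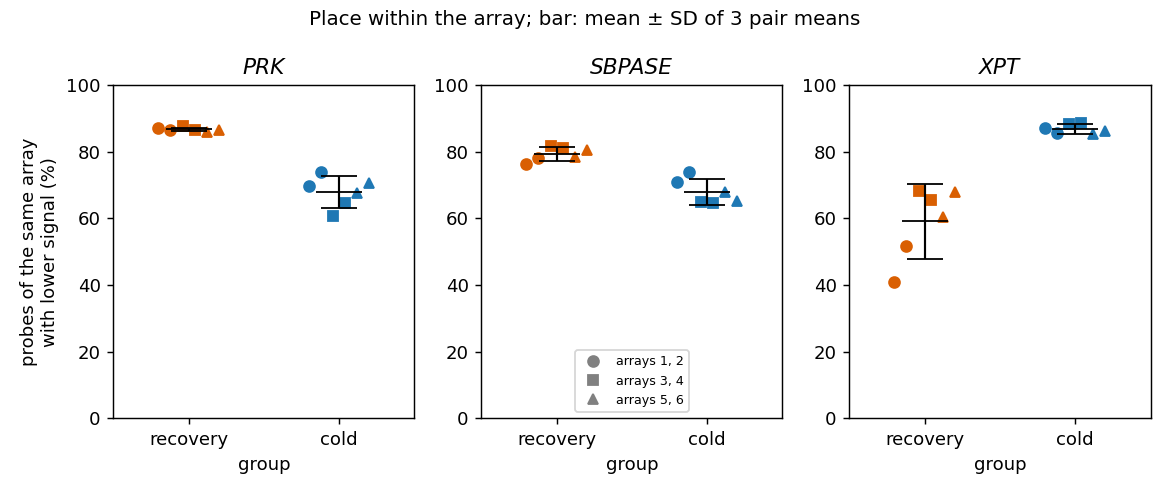
Percent of probes on the same array with a lower deposited signal (vertical axis, 0 to 100) for PRK, SBPASE and XPT on each array, recovery left of cold; the bar is the mean ± SD of 3 pair means. PRK and SBPASE stand higher in every recovery array than in any cold array, and XPT stands lower, with recovery arrays 1 and 2 lowest.

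Among all changes on the array, that of PRK ranked 149th of 3439 probes from the top and 22nd of the 692 probes with 1 gene. SBPASE ranked 646th of all probes and 119th of the probes with 1 gene. With the sign counted, 81.2% of all probes had a lower change than SBPASE, and these include the probes that fell. XPT ranked 167th of all probes from the bottom and 25th of the probes with 1 gene. The median change over all probes was 0.11 on the log2 scale. PRK and XPT thus lay toward opposite ends of the distribution, and SBPASE lay on its upper shoulder.

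**Figure D3:**
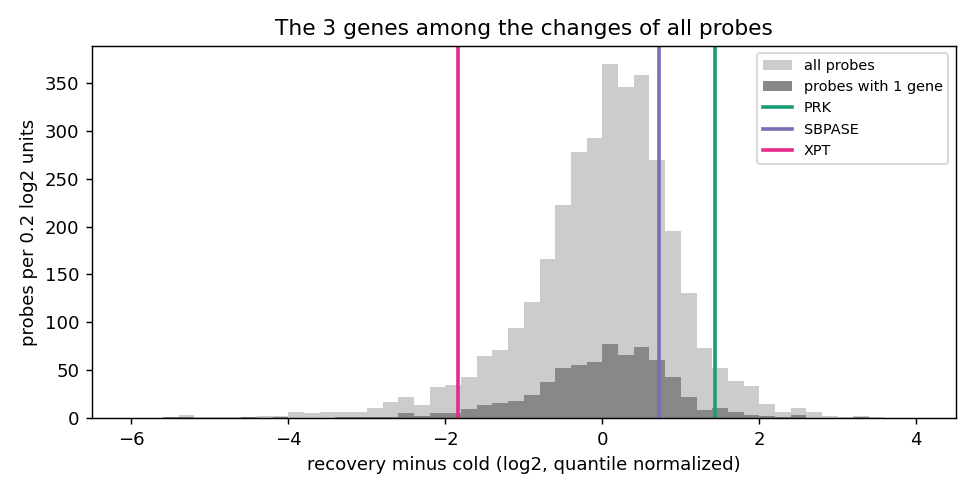
Histogram of the log2 change (recovery minus cold, quantile normalized) of all 3439 probes in light grey and of the 692 probes with 1 gene in dark grey, with vertical lines at XPT (-1.83), SBPASE (0.73) and PRK (1.44). XPT lies in the lower tail, PRK in the upper tail and SBPASE on the upper shoulder.

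The genes were also set against each other within each array. After quantile normalization the log2 change of PRK exceeded that of SBPASE by 0.71 ± 0.11 (SE, n = 3 per group), although both encode enzymes of the same cycle. The change of PRK exceeded that of XPT by 3.27 ± 0.34, and the change of SBPASE exceeded that of XPT by 2.56 ± 0.26. The exact two-sided permutation p was 0.1 for each over pair means, also after adjustment over the 3 differences, and 0.1 is the smallest p possible with 3 against 3. Over 12 arrays taken as independent, although neighbouring arrays resembled each other, the adjusted exact p was 0.00216 for each. That is the smallest that 6 against 6 can give. On the unscaled log2 values a shift common to all these values of an array cancels. There the differences were 0.82 for PRK against SBPASE, 3.27 for PRK against XPT and 2.45 for SBPASE against XPT. A common factor of the signals does not cancel fully, because the pseudocount is added to them. With arrays brought to a common median before the pseudocount, the differences were 0.84, 3.32 and 2.48 in the same order.

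The size of each change depended on how the arrays were scaled. PRK changed by 1.24 with cyclic loess, 1.70 with arrays centred on their medians, 1.89 with arrays brought to a common median first and the pseudocount added afterwards, and 0.53 as deposited, with an adjusted p of 0.0272 in the last (limma). SBPASE changed by 0.59 with cyclic loess, 0.88 when centred and 1.05 with the common median, passing the test each time. XPT changed by -1.87 with cyclic loess, -1.57 when centred, -1.44 with the common median and -2.74 as deposited. PRK stayed above the median probe by 1.22 to 1.74 over the 5 scalings and SBPASE by 0.57 to 0.90, whereas XPT lay below it, at -1.95 to -1.58. The balance of all calls moved with the scaling, from 735 higher and 664 lower after quantile normalization to 638 and 723 with cyclic loess, 888 and 518 with the common median, 1237 and 535 when centred, and 192 and 2024 as deposited.

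**Figure D4:**
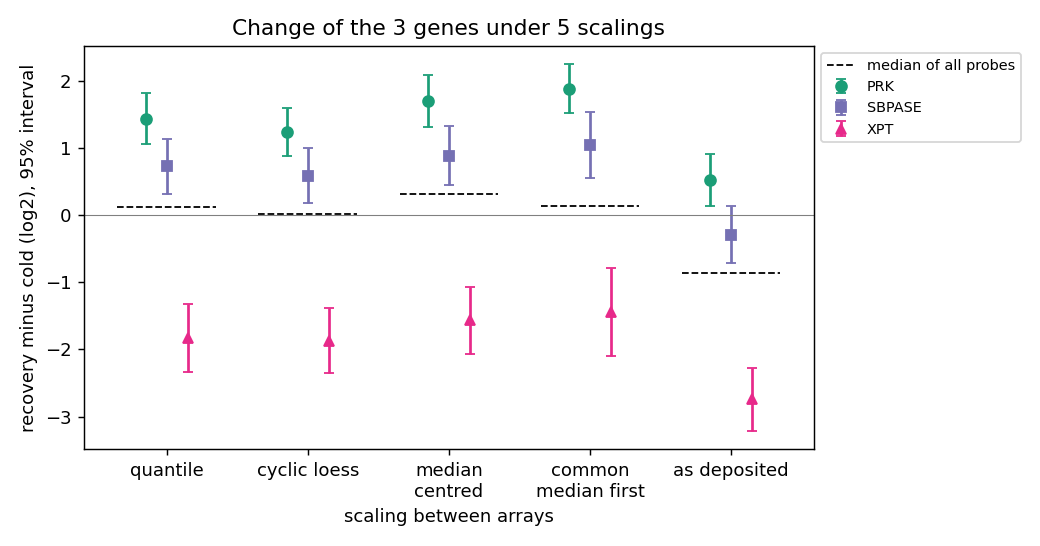
Log2 change (recovery minus cold, with its 95% interval from limma, n = 3 pair means per group) of PRK, SBPASE and XPT under 5 scalings between arrays, with a dashed line at the median change of all probes. PRK and SBPASE lie above the dashed line and XPT below it under each of the 5, while SBPASE falls below 0 as deposited (-0.29).

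Of 84 genes in lists for carbon metabolism around these enzymes, 8 had a probe with exactly 1 gene, including PRK, SBPASE and XPT. Of these 8, 2 passed as higher (PRK and SBPASE), 1 as lower (XPT) and 5 did not pass, against 39.9% of probes with 1 gene that passed, 20.7% as higher and 19.2% as lower. The share called was close to that of the array, but only the chosen genes PRK, SBPASE and XPT made it up. None of the other 5 passed, so the share is no result about the lists. The median change of the 7 that were above 0 on all arrays, PRK, SBPASE and XPT included, was 0.34, against 0.082 for the probes with 1 gene. In the Calvin cycle list, 3 of 28 genes were measured. The member that did not pass, AT5G44520, had a log2 change of 0.036 ± 0.26 (SE, n = 3 per group, adjusted p = 0.925, limma), with an interval of -0.55 to 0.62. It was dim, with deposited signals of 0.0263 to 0.126 in recovery, near the pseudocount of 0.0415, and 0.153 to 0.232 in cold. As deposited every recovery array thus lay below every cold array, as for 49.2% of all probes. XPT was the only measured member of 6 plastid phosphate translocators, so whether other members of that family changed was not analysed here.

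Of 9 genes in the list of thioredoxins and their reductases, 2 were measured and neither passed. AT2G04700 had a log2 change of 0.46 ± 0.19 (adjusted p = 0.0738, limma). Its deposited signals were 0.298, 0.377 and 0.287 in the 3 recovery pairs, against 0.621, 0.458 and 0.448 in the 3 cold pairs. Every recovery array of AT2G04700 lay below every cold array as deposited, as for 49.2% of all probes, whereas SBPASE overlapped between the groups. NTRC, the plastid NADPH-dependent thioredoxin reductase, had a log2 change of 0.34 ± 0.22 (adjusted p = 0.236, limma). ATSPS4F (AT4G10120), a sucrose-phosphate synthase of the starch and sucrose list, had a change of 0.077 ± 0.15 (adjusted p = 0.701, limma). The mean deposited signal was 0.176 in recovery and 0.355 in cold for NTRC, and 0.635 in recovery and 1.07 in cold for ATSPS4F. As deposited, every recovery array of NTRC and of ATSPS4F lay below every cold array, as for 49.2% of all probes. In the pentose phosphate pathway list, 1 of 12 genes was measured: AT1G12230 was listed at 0 in 4 of 6 recovery and 2 of 6 cold arrays, so no fold is given. None of the 11 genes of photorespiration had a probe of its own.

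**Figure D5:**
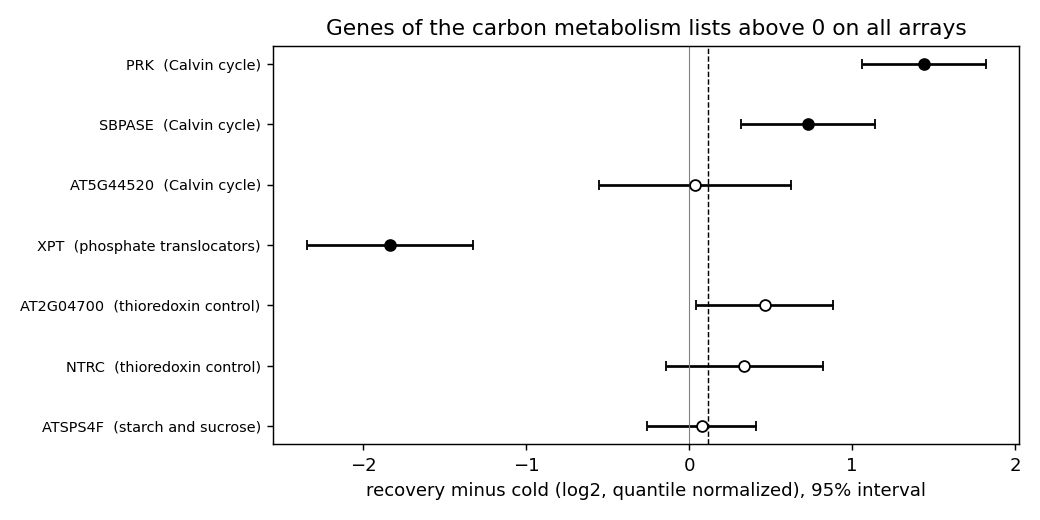
Log2 change (recovery minus cold, quantile normalized, with 95% interval from limma, n = 3 pair means per group) of the 7 measured genes of the carbon metabolism lists that were above 0 on all arrays; filled circles passed an adjusted p of 0.05, and the dashed line is the median of all probes (0.11). PRK and SBPASE are filled to the right of 0 and XPT is filled to its left; the other 4 circles are open.

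The genes whose profile over the 12 arrays was most like each of the 3 were found by the smallest root mean square difference of centred log2 values, among 458 other probes with 1 gene and a signal above 0 on all arrays. For PRK they were AT4G27390 (difference 0.16), PSBY, a small subunit of photosystem II (0.20), and LHB1B2 (0.20). AT4G27390 changed by 1.19, PSBY by 1.44 and LHB1B2 by 1.44 on the log2 scale. Closeness in change follows from choosing genes by their profile over both groups. For SBPASE the closest profiles were those of APS4, an ATP sulfurylase of sulfate assimilation (0.13), AT2G19280 (0.13) and AT4G16610 (0.16). APS4 changed by 0.72 ± 0.20 (adjusted p = 0.0168, limma). As deposited APS4 had a mean signal of 0.226 in recovery and 0.325 in cold. On that scale every recovery array of APS4 lay below every cold array, as for 49.2% of all probes, whereas SBPASE overlapped between the groups. For XPT they were AT1G73470 (0.28), AT3G04210 (0.28) and AT4G09620 (0.33), which changed by -1.84, -1.93 and -1.30. The nearest profiles of XPT were farther from it than those of PRK and SBPASE were from theirs.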

How the data were processed

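The table of the series holds 1 deposited signal per probe and array, on a linear scale from 0 to 100. The steps by which the authors made them, and the meaning of 0 and 100, were not given in the sources used here. Probes were named through the platform annotation by gene identifier, with a RefSeq gene table (TAIR10.1) used for names only, and 690 of 692 probes with exactly 1 gene matched a locus. Values were taken as log2(signal + 0.0415), this pseudocount being the 10th percentile of positive signals, and were quantile normalized. A fold is on that scale and understates changes of dim genes.

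In each group every array correlated best with its neighbour in the pairs 1 and 2, 3 and 4, or 5 and 6 (correlation of deviations from the group mean -0.033 to 0.063 in recovery and 0.34 to 0.50 in cold), and each pair was averaged. Recovery was compared with cold by limma 3.58.1 in R 4.3.3 (lmFit, eBayes with trend) on all 3439 probes with Benjamini-Hochberg adjustment, and single values by exact two-sided permutation tests over samples. The procedure was tested on simulated data. Genes and lists were chosen with earlier results of these data known. Named genes are the 3 chosen loci, the measured list members and the 3 nearest profiles of each. Alternatives changed the scaling, pseudocount, dim-probe filter, variance model, the handling of pairs and a block on replicate number, and left out each array or pair. Figures were drawn with matplotlib 3.10.9. Sequences and coordinates were not used here.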

Additional observations from a re-analysis of the deposited data

How the results depend on the processing

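Under the 31 alternatives run for each, PRK kept a positive and XPT a negative change that passed the test. SBPASE reversed as deposited (-0.29), where 2216 probes passed and 192 were higher, against 1399 and 735 after quantile normalization; the median probe was then at -0.86, and SBPASE lay above it. Centred on medians, 1237 probes were higher. With an array or a pair left out, PRK ran from 1.35 to 1.59, SBPASE from 0.62 to 0.87 and XPT from -1.95 to -1.54, all past the threshold, with the largest adjusted p of SBPASE (0.0458, limma) without recovery arrays 3 and 4. The probes called ran from 1089 to 1400, and those called higher from 546 to 736. The difference of PRK and SBPASE ran from 0.60 to 0.79, of PRK and XPT from 2.94 to 3.50 and of SBPASE and XPT from 2.34 to 2.78, and the shift in array place ran from 16.3 to 20.9 points for PRK, 9.82 to 13.7 for SBPASE and -31.6 to -21.3 for XPT. Counted among the brighter probes that remain without the dimmer 25% or 50%, these shifts were 25.2 or 37.6 points for PRK, 15.2 or 22.7 for SBPASE and -36.2 or -46.4 for XPT, since fewer probes then make up the 100%. With the 12 arrays taken as independent these differences (0.71, 3.27, 2.56) and shifts (18.9, 11.4, -27.7) passed an exact permutation test, by the larger number of samples. Neighbouring arrays resembled each other, so they may not be independent. Same-numbered pair means of the groups correlated by -0.0050 to 0.12. Same-numbered single arrays correlated by 0.0054 to 0.15 over all probes, and by 0.0064 to 0.24 over the 25% of probes with the highest mean signal. Whether the numbers mark a pairing was therefore not settled. With the pair number as a replicate block 1381 probes passed and SBPASE had an adjusted p of 0.0180 (limma). With the replicate number as a block over 12 arrays 1777 passed. The number of arrays limits the precision, and signal near 0 limits what dim probes can show.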
